A study of Homo sapiens with 12 samples.

Results

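Growth without drug was measured for 543 genes by CRISPR interference, in which a sgRNA brings a repressor to the start site of a gene and lowers its transcription. The cells were K562, an established line from a chronic myeloid leukaemia. The constructs described here carried 1 sgRNA against a gene and 1 non-targeting sgRNA, in either order. These were 119460 of the 1301881 constructs of a library that expresses sgRNAs in pairs. All 543 genes of the library were covered, each by 2 sgRNAs and by 220 constructs. The values compare a reference endpoint with T0. The reference endpoint cultures received the vehicle DMSO and were harvested on day 19 after transduction in the 2023 screen and on day 18 in the 2022 screen, and the T0 samples were taken from the same cultures on day 9. Each screen had 2 replicate cultures, so 8 of the 12 libraries carry the comparison. The other 4 libraries came from cultures given niraparib, an inhibitor of PARP1 and PARP2. All groups shared the K562 CRISPR interference line, the lentiviral library and selection with 3 μg/mL puromycin, and DNA of the integrated sgRNA cassettes was read, not RNA, so the degree of repression of each gene was not measured.

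A cell that divides more slowly after a knockdown leaves fewer descendants, and its construct takes a smaller share of the reads at the endpoint. Knockdowns of genes that proliferating cells need, such as those for ribosomes, replication and mitochondrial protein synthesis, are therefore usually depleted in such screens, and knockdowns of genes that restrain proliferation can be enriched. The growth value of a gene is the log2 change of its summed reads, reference endpoint over T0, set against the summed reads of 3025 constructs with 2 non-targeting sgRNAs. A value of 0 is the level of those controls and a value of -1 means a 2-fold lower abundance relative to them. A gene was counted as lower or higher where the quasi-likelihood test of edgeR gave an adjusted p under 0.05, with adjustment over all genes and 55 single non-targeting sgRNAs.

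The lowest and the highest gene of the screen mark its range. CAD encodes the enzyme that carries out the opening steps of pyrimidine synthesis, and C12orf66, now named KICS2, encodes a subunit of KICSTOR, a complex that helps to hold mTORC1 in check. Because CRISPR interference acts at the start of a gene, the RefSeq sequence before the annotated start of each is shown, from build GRCh38.p14, 5′ to 3′ on the strand of the gene, with the 50 bases next to the start in capitals. The CAD window is chr2:27217119-27217368 on the plus strand and the KICS2 window is chr12:64222297-64222546 on the minus strand, both just upstream of the transcribed part of the gene.
CAD: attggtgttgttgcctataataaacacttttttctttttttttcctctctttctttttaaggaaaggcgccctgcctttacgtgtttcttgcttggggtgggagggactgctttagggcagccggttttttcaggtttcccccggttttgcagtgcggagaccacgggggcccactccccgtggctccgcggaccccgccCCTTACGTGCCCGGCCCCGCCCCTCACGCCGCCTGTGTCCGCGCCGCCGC
KICS2: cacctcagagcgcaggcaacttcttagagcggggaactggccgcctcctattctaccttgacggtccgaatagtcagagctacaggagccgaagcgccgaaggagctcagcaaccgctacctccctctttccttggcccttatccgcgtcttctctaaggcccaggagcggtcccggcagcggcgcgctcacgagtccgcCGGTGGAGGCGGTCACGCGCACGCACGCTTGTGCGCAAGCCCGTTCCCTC
The CAD window held 19 CpG dinucleotides and the KICS2 window 26, against a median of 21 over the 644 windows of library genes and 16 over 22199 windows of protein-coding genes.

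In reads, CAD constructs averaged 6.29 and 5.38 at the reference endpoint of the 2 cultures of 2023, against 79.4 and 79.5 at T0. In 2022 they averaged 17.2 and 15.2 reads at the reference endpoint, against 96.7 and 95.4 at T0. Constructs with 2 non-targeting sgRNAs averaged 323 and 299.7 reads at the reference endpoint of 2023 against 204 and 204 at T0, and 749 and 677 at the reference endpoint of 2022 against 303 and 302 at T0. CAD was therefore depleted in reads as well as relative to the controls, in all 4 cultures. KICS2 constructs averaged 748 and 697 reads at the reference endpoint of 2023 against 263 and 265 at T0, and 1507 and 1406 at the reference endpoint of 2022 against 392 and 398 at T0, a larger gain than that of the controls in each culture.

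The reference libraries held 200.2 and 187.2 megareads in 2023 and 460.7 and 441.2 in 2022, and the T0 libraries 221.9 and 221.8 megareads in 2023 and 324.8 to 325.9 in 2022. The reads summed for a gene in these 8 libraries had medians of 41586 to 101322, and the lowest sum was 757. Single non-targeting sgRNAs, treated as genes, ran from -0.06 to 0.08 with an SD of 0.0196, and 3 of 55 passed the test. One library stood apart. Over the 543 genes, replicate 1 minus replicate 2 of the 2022 reference endpoint had an SD of 0.150, against 0.0299 at the reference endpoint of 2023, 0.0171 and 0.0160 at T0, and 0.0352 and 0.0390 under niraparib. In that pair 62 genes were more than 0.2 lower in replicate 1 and 7 more than 0.2 higher, and none of the other reference or T0 pairs had such a gene. Some results that this library moves are given with and without its culture, and others only with it.

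The growth test passed for 463 of 543 genes (85.3%). Knockdown lowered growth for 440 of 543 genes (81.0%) and raised it for 23 (4.24%), and 80 did not pass. The median growth value was -0.46. Of the 543 genes, 26 lay below -2, 120 between -2 and -1, 116 between -1 and -0.5, and 156 between -0.5 and the lowest non-targeting sgRNA. Another 115 lay within the range of the single non-targeting sgRNAs, 39 of which passed the test, and 10 lay above the highest of them. Without replicate 1 of 2022 the counts were 449 lower (82.7%) and 37 higher (6.81%), without replicate 2 of 2022 they were 459 and 38, and without replicate 2 of 2023 they were 412 and 13.

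These directions are relative to the non-targeting controls, and 3 scalings over whole libraries move all values upward. TMM scaling over all genes moved the median by 0.44 and left 260 genes lower and 248 higher. Median-of-ratios scaling moved it by 0.49 (252 lower and 263 higher) and total reads by 0.78 (187 lower and 338 higher). Of the 440 genes that fell, 193 also had values below 0 under all 3 of these scalings. Since these scalings raise all values, the 23 genes that rose stay above 0 under them by construction. With 81.0% of all genes lower, a list in which about that share fell is not set apart by its count. Nor is a short list set apart because all its genes fell. As a guide to single genes, a negative growth value nearer to 0 than 0.44 turned positive under all 3, and one nearer than 0.78 turned positive when scaled to total reads. A gene that stayed below 0 under all 3 is therefore one that lay more than about 0.78 below 0. Counts of such genes restate the growth values and add no separate support.

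The 15 lowest genes served many different cell functions. CAD changed by -4.32 and -4.44 in the 2 cultures of 2023 and by -3.80 and -3.81 in those of 2022, with a fitted value of -4.09 (SD 0.337, n = 4 cultures, edgeR adjusted p = 9.36e-10). NOL6, a factor for early assembly of the small ribosomal subunit, had -3.61 and -3.45 in 2023 and -2.80 and -2.99 in 2022. HJURP, the chaperone that places CENP-A at centromeres, had -3.36 and -3.29 in 2023 and -2.97 and -2.97 in 2022. In these genes the 2023 cultures were all below the 2022 cultures, and every culture lay far below the non-targeting range.

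They were followed by GEMIN2 (-3.06), a subunit of the SMN complex that assembles spliceosomal particles, DCTN3 (-3.01) of the dynein cofactor dynactin, and MCM2 (-2.93) of the replicative helicase. DNMT1, the maintenance DNA methyltransferase, had a growth value of -2.89. NOP10 (-2.73) and DKC1 (-2.72) belong to the H/ACA particles that pseudouridylate ribosomal RNA. The import receptor IPO13 (-2.71), the TFIID subunit TAF2 (-2.68) and the SMC5-SMC6 subunit NDNL2 (-2.66, now NSMCE3) came next. HSD17B12 (-2.56), which acts in the elongation of very long-chain fatty acids, ATXN10 (-2.55), and MINOS1 (-2.47, now MICOS10), a subunit of the complex that shapes mitochondrial cristae, completed the set. Their edgeR adjusted p ran from 1.87e-10 to 2.79e-09, and all 15 lay below -1.6 also when scaled to total reads. NDNL2 was the only one of the 15 whose values in the 2 screens overlapped, with -2.72 and -2.66 in 2023 and -2.71 and -2.56 in 2022.

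Genes for making ribosomes fell as a group. All 18 measured genes of the list of ribosome biogenesis and H/ACA proteins were lower, against 81.0% of all genes. Their median was -1.43, against -0.46 over all genes, and all 18 were below 0 under the 3 other scalings too. After NOL6, NOP10 and DKC1, the lowest were SDAD1 (-1.97), which acts in maturation of the large subunit, and RIOK1 (-1.93), a kinase of late small-subunit maturation. NHP2, the H/ACA partner of NOP10 and DKC1, had -1.57. The mildest member was NOP14 (-0.88), a component of the small subunit processome. Of the 18 genes, 15 lay below -1. NOL6 also moved with the library that stands apart, 0.23 higher in replicate 1 than in replicate 2 of the 2022 reference endpoint.

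Genes of the general transcription machinery fell as a group, and splicing genes were mixed. All 8 genes of TFIID, Mediator and general transcription were lower, against 81.0% of all genes. Their median was -1.27, and all 8 stayed below 0 under the 3 other scalings. The Mediator subunits MED19 and MED18 had -1.76 and -1.41, and CDK12, a kinase of the RNA polymerase II tail, was the mildest at -0.85. Among 9 genes of splicing, the exon junction and the SMN complex 8 were lower, a share near the 81.0% of all genes, and only 3 of these stayed below 0 under all 3 other scalings. The minor spliceosome protein ZCRB1 had -1.34 and the cap-binding subunit NCBP2 -1.01. In the exon junction complex the core proteins RBM8A and EIF4A3 had -0.70 and -0.69, MAGOH -0.54 and CASC3 -0.23. MAGOHB, the paralog of MAGOH, had 0.01 and did not pass. A list of RNA polymerase III and RNase P was written after the gene names were seen. All 6 of its genes were lower, against 81.0% of all genes. Its median was -1.13, and 5 of the genes were below 0 under all 3 other scalings.

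Mitochondrial protein synthesis was among the most depleted groups. All 9 genes of the list of mitochondrial tRNA synthetases and translation were lower, against 81.0% of all genes. Their median was -1.57, and all 9 stayed below 0 under the 3 other scalings. PARS2, the mitochondrial prolyl-tRNA synthetase, had -2.44, PTCD1, which binds mitochondrial RNA, had -2.29, and IARS2, the isoleucyl-tRNA synthetase, had -1.62. POLG, the polymerase of mitochondrial DNA, was the mildest at -0.93. PTCD1 was nearly equal in all cultures, with -2.31 and -2.32 in 2023 and -2.29 and -2.25 in 2022, while PARS2 had -2.61 and -2.61 in 2023 and -2.25 and -2.30 in 2022. All 5 genes of the respiratory chain, iron-sulfur and import list were lower as well, against 81.0% of all genes. Their median was -1.26, and 3 of them stayed below 0 under all 3 other scalings.

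Metabolic enzymes outside the mitochondrial ribosome showed falls of similar size. In pyrimidine and purine synthesis CAD was joined by UMPS (-1.83), which makes UMP, while PRPS1 (-0.33), which makes the phosphoribosyl donor, was milder and had a positive value under all 3 other scalings. All 6 genes of serine and one-carbon metabolism were lower, against 81.0% of all genes, 5 of them under all 3 other scalings too. Their median was -1.31, and -1.41 without replicate 1 of 2022. MTHFD1 had -1.75, and the mitochondrial serine hydroxymethyltransferase SHMT2 had -1.68. SFXN1, a mitochondrial serine carrier, had -1.38, MTHFD2 -1.25, the serine-making phosphatase PSPH -1.23 and MTHFD1L -0.68. SHMT2 had -1.96 and -1.87 in 2023 and -1.20 and -1.70 in 2022, so that replicate 1 of 2022 was the highest. SFXN1 had -1.02 and MTHFD2 -0.91 in that culture, against -1.41 and -1.27 in replicate 2 of 2022, and without it the 3 genes had growth values of -1.81, -1.48 and -1.34.

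Of the glycolytic enzymes, PGK1 had -1.97, GAPDH -1.37 and ALDOA -1.04. They belong to a list of 5 glycolysis and pentose phosphate enzymes that was written after the gene names were seen. All 5 were lower, against 81.0% of all genes (median -1.04), 4 of them under all 3 other scalings too. All 5 genes of ER insertion, lipid and haem were lower, against 81.0% of all genes. Their median of -1.72 was the lowest among lists with at least 5 genes, and they stayed below 0 under the 3 other scalings. CYB5B, a cytochrome b5 of the mitochondrial outer membrane, had -1.96. UROD of haem synthesis had -1.72, MBTPS2, the protease that releases sterol-responsive transcription factors, had -1.53, and EMC2 of the membrane insertase of the endoplasmic reticulum had -0.99.

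Genes of DNA replication differed widely among themselves. Of 15 genes of the replicative helicase and origin licensing 13 were lower, a share near the 81.0% of all genes. The list median was -0.88, against -0.46 over all genes, and 8 of the 13 stayed below 0 under all 3 other scalings. MCM2 had -3.10 and -3.08 in 2023 and -2.84 and -2.70 in 2022. The origin recognition subunit ORC5 had -2.15 and the helicase subunit MCM4 had -1.92. MCM7 and CDC45, which belong to the same active helicase, did not pass, with growth values of -0.003 and -0.006 (edgeR adjusted p of 0.842 and 0.498). How far these 2 genes were repressed was not measured. Their T0 levels were 0.17 and 0.27 above the non-targeting constructs, though the T0 level alone does not show what happened before T0.

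Of 12 genes of the replicative polymerases, the sliding clamp and RPA 11 were lower, against 81.0% of all genes. The list median was -0.77, and 6 of the 11 were below 0 under all 3 other scalings. The primase subunit PRIM1 had -1.45, and the RPA subunits RPA2 and RPA3 had -1.25 and -1.15. PCNA, the sliding clamp, had -0.04, and POLE3, a small subunit of polymerase epsilon, had -0.004 and did not pass. All 6 clamp loader genes were lower, against 81.0% of all genes, and 3 of them under all 3 other scalings. Their median was -0.68, and -0.60 without replicate 1 of 2022. RFC3 had -1.87, RFC5 -0.90, RFC4 -0.81 and RFC2 -0.10. The 4 proteins sit in the same complex, and how far each gene was repressed was not measured.

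Genes for chromosome segregation followed a similar pattern. All 3 centromere genes were lower, against 81.0% of all genes. They were HJURP (-3.15), CENPM (-1.61) and CENPF (-0.32), the last of which was positive under the 3 other scalings. All 6 genes of the spindle, augmin, dynactin and tubulin list were lower, against 81.0% of all genes. Their median was -1.47, and 5 of them were below 0 under all 3 other scalings. After DCTN3 came the augmin subunit HAUS1 (-2.35) and the large dynactin subunit DCTN1 (-1.60). The 6 genes of mitotic kinases, checkpoint and APC/C were all lower, against 81.0% of all genes. Their median was -0.71, and 3 stayed below 0 under all 3 other scalings. The checkpoint protein BUB3 had -1.17, the kinases AURKA and PLK1 had -1.15 and -0.90, and cyclin CCNB1 had -0.04.

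Protein degradation gave mixed values. Of 13 proteasome genes, a list written after the gene names were seen, 10 were lower and 1 was higher (median -0.55). The share lower was near the 81.0% of all genes, and 4 of the 10 stayed below 0 under all 3 other scalings. The lid subunit PSMD12 had -1.17 and the core subunits PSMA7 and PSMA2 had -1.14 and -0.89. The immunoproteasome genes PSMB8 (0.01) and PSME2 (0.02) did not pass, and the testis form PSMA8 was slightly higher (0.03). In the COP9 signalosome and cullin ligase list 8 of 10 genes were lower, near the 81.0% of all genes, and 1 was higher. The list median was -0.61, and 3 of the 8 were below 0 under all 3 other scalings. COPS5, the catalytic subunit that removes NEDD8 from cullins, had -1.10, COPS3 -0.97, COPS4 -0.89 and COPS2 -0.61. MYEOV2, now named COPS9 and the smallest subunit of the same complex, went the other way, with 0.23 and 0.19 in 2023 and 0.20 and 0.15 in 2022. Its fitted value was 0.19 (SD 0.0317, n = 4 cultures, edgeR adjusted p = 4.52e-06).

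Of 8 genes of the PP2A, PP4 and PP1 phosphatases 7 were lower, a share near the 81.0% of all genes. The list median was -0.53, against -0.46 over all genes, and 3 of the 7 were below 0 under all 3 other scalings. The PP2A scaffold PPP2R1A had -1.37 and the PP1 inhibitor PPP1R8 had -0.89. The regulatory subunit PPP2R2A had -1.06 and -1.09 in 2023 and -0.88 and -0.98 in 2022. The catalytic subunits PPP2CA and PPP4C had -0.63 and -0.43. PPP2R4, now PTPA, had 0.02 and did not pass.

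The mTORC1 pathway showed both directions. mTORC1 is a kinase complex that drives protein synthesis when nutrients and growth factors are present, and the KICSTOR and TSC proteins act against its activation. C12orf66 and TSC1, from the list of genes that restrain the complex, rose. C12orf66 had 0.85 and 0.84 in 2023 and 0.64 and 0.66 in 2022, with a fitted value of 0.75 (SD 0.113, n = 4 cultures, edgeR adjusted p = 4.70e-10). TSC1, a subunit of the complex that switches off the mTORC1 activator RHEB, had 0.17 and 0.16 in 2023 and 0.08 and 0.12 in 2022. Both genes were above 0 in all 4 cultures, and for both the 2023 cultures lay above the 2022 cultures.

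All 8 measured genes that support mTORC1 or mTORC2 activity were lower, against 81.0% of all genes. Their median was -1.04, and 5 of them stayed below 0 under all 3 other scalings. SEH1L, a subunit of both the nuclear pore and the GATOR2 complex, had -1.73. The mTORC1 scaffold RPTOR had -1.51, the kinase MTOR -1.25 and the mTORC2 subunit MAPKAP1 -1.20. MTOR had -1.37 and -1.38 in 2023 and -1.13 and -1.12 in 2022. The Ragulator subunits LAMTOR3 and LAMTOR5 had -0.88 and -0.48, PIK3CA had -0.18 and the RAG GTPase RRAGD had -0.07.

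Other signalling genes separated less clearly by role. K562 cells carry the BCR-ABL1 fusion kinase, which signals through GAB2, SOS1 and RAS. Of 6 genes on the side of BCR-ABL, RAS and STAT signalling 5 were lower (median -0.13), a share near the 81.0% of all genes. Only GAB2 (-0.98) and SOS1 (-0.79) stayed below 0 under all 3 other scalings. MYC had -0.21 and PTPN11 -0.03. ABL1 had -0.005 and did not pass, with edgeR adjusted p = 0.576. Its sgRNAs are aimed at the start site of ABL1, and repression of the fusion transcript was not measured. The ABL1 value is therefore no test of the fusion kinase. Among 5 kinase and RAS brakes 2 rose, against 4.24% of all genes, and 3 fell, against 81.0%. CBL, the ubiquitin ligase that tags activated tyrosine kinases, had 0.44 and 0.40 in 2023 and 0.32 and 0.35 in 2022. GPS2, a subunit of the NCoR-HDAC3 corepressor that also acts in JNK signalling, had 0.58 and 0.57 in 2023 and 0.40 and 0.47 in 2022. Both were above 0 in every culture. The phosphatase PTPN1 (-0.72), the RAS inactivator NF1 (-0.25) and LZTR1 (-0.14), an adaptor for RAS ubiquitination, were lower, and each had a positive value when scaled to total reads.

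Chromatin genes included several of those that rose. In the PRC2 and PRC1 list 3 of 7 genes rose, against 4.24% of all genes, and 2 fell, against 81.0% (median 0.00). MTF2, an accessory subunit that guides PRC2 to CpG islands, had 0.35 and 0.34 in 2023 and 0.21 and 0.30 in 2022. The PRC2 methyltransferase EZH2 had 0.09 and the PRC1 subunit PHC1 had 0.06, the latter within the range of the non-targeting sgRNAs. RBBP4, a histone-binding protein shared by many chromatin complexes, had -1.16. BMI1 had -0.04, and CBX6 (-0.008) and PHC2 (0.0002) did not pass. EZH2 with its second sgRNA alone had 0.01 and did not pass.

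Of 9 chromatin remodellers and acetyltransferases 7 fell, a share near the 81.0% of all genes. The 2 that rose, against 4.24% of all genes, were the SWI/SNF subunit ARID1A (0.08) and the acetyltransferase EP300 (0.03). EP300 lay within the range of the non-targeting sgRNAs. None of the 7 stayed below 0 under all 3 other scalings. With the second sgRNA alone ARID1A had -0.01. In cell cycle transcription LIN52, a subunit of the MuvB core, had -2.03 and MYBL2 had -0.73, while E2F7 (0.07) and CDK4 (0.04) were slightly higher. The retinoblastoma gene RB1 had -0.38, with -0.71 for 1 sgRNA and 0.03 for the other. Altogether 7 of 12 genes of the cell cycle transcription list fell, against 81.0% of all genes. Of the 7, 1 was below 0 under all 3 other scalings.

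Of the 23 genes that rose, 10 exceeded the highest single non-targeting sgRNA of 0.08. In order of size they included C12orf66, GPS2, CBL, MTF2, MYEOV2, HMGXB3 (0.18), TSC1 (0.13), EZH2 and ARID1A. The other 13 lay within the range of the non-targeting sgRNAs, from 0.02 for GPX4, which detoxifies lipid peroxides, to 0.07 for E2F7. Besides those already given they were the GTPase RAC1, the cohesin regulator PDS5B and the NF-kappaB kinase CHUK at 0.03 each, the deadenylase CNOT6L and the transcription factor SNAI1 at 0.05 each, the adaptor YWHAZ (0.05) and the decay kinase SMG1 (0.06). SNAI1 had 0.09 and 0.08 in 2023 and -0.03 and 0.05 in 2022. CHUK did not pass when any 1 of the 4 cultures was left out, and GPX4, EP300, RAC1, PSMA8 and SNAI1 did not without either culture of 2023.

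Several values of DNA repair genes depended on the library that stands apart. Homologous recombination rebuilds broken DNA from the sister chromatid, and BRCA2 and BARD1 act in it. Of its 22 measured genes 17 were lower, a share near the 81.0% of all genes (median -0.35), 5 of them under all 3 other scalings; without replicate 1 of 2022, 18 were lower and 3 higher and the median was -0.21. BARD1, the partner of BRCA1, had -1.09 and -1.07 in 2023 and -2.06 and -1.13 in 2022. BRCA2 had -1.08 and -1.06 in 2023 and -2.10 and -1.05 in 2022. In both genes 3 cultures lay close together and replicate 1 of 2022 lay far below them.

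Without that culture the growth values were -1.10 for BARD1 and -1.06 for BRCA2, against -1.33 and -1.31 with it. RAD54L, a motor protein of recombination, had -0.17 and -0.16 in 2023 and -1.07 and -0.14 in 2022. It did not pass with all cultures (-0.37, edgeR adjusted p = 0.0591), and passed without that culture (-0.15, edgeR adjusted p = 1.31e-06). Fanconi anemia genes, which act at DNA crosslinks, were lower in 16 of 17 cases, against 81.0% of all genes. Their median was -0.30, and -0.24 without that culture, against -0.46 and -0.42 over all genes. None of the Fanconi genes stayed below 0 under all 3 other scalings.

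In the ATR-CHK1 checkpoint and 9-1-1 clamp 11 of 12 genes were lower, against 81.0% of all genes. The list median was -0.78, and -0.74 without replicate 1 of 2022. With all cultures, 6 of the 11 were below 0 under all 3 other scalings. The clamp subunits RAD9A and HUS1 had -1.83 and -1.39, the kinase ATR -1.63 and the clamp loader RAD17 -0.87. Without replicate 1 of 2022 they had -1.70, -1.24, -1.54 and -0.75. PARP1, which marks DNA breaks with ADP-ribose chains, had -0.58 and -0.54 in 2023 and -1.35 and -0.56 in 2022, with a growth value of -0.75, and -0.56 without that culture (edgeR adjusted p = 0.000193). Scaled to total reads PARP1 had 0.03. PARP2 had -0.03. XRCC1, the scaffold of single-strand break repair, had -0.43, and -0.32 without that culture.

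Of 6 genes of non-homologous end joining 3 were lower, against 81.0% of all genes. Only XRCC5, a subunit of Ku, stayed below 0 under the 3 other scalings (-1.61). XRCC6, the other subunit of Ku, had -0.57. MSH6, which recognises mismatches in DNA, had -0.49, and a positive value when scaled to total reads.

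The deviation of replicate 1 of the 2022 reference endpoint was not spread evenly over functions. Of all 543 genes, 62 were more than 0.2 lower in it than in replicate 2. Of these, 33 were among the 59 genes of the lists of homologous recombination, end resection, Fanconi anemia and the ATR-CHK1 checkpoint. These 4 lists were chosen with earlier results of these data known. The largest differences were -1.03 for BRCA2, -0.94 for RAD54L, -0.92 for BARD1 and -0.78 for PARP1. On the other side stood SHMT2 (0.52), SFXN1 (0.41), MTHFD2 (0.37) and MBTPS2 (0.27). Across the 543 genes this difference had a Pearson r of 0.67 with the niraparib response of 2023, a log2 ratio of niraparib over reference endpoints from other libraries. Without PARP1 r was 0.73. The points share the sgRNAs and the library pool. PARP1 went the opposite way, with -0.78 in the difference and 2.08 in the niraparib response. Whether cells or DNA of the niraparib arm are part of this library was not tested, and if they are, its values are not growth without drug alone.

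Most genes of a list for other tissues than K562 stayed near the controls. The list of 18 genes was written after the gene names were seen and includes lymphocyte genes. Of these 5 were lower, against 81.0% of all genes, none of them under all 3 other scalings, and 2 were higher, against 4.24% of all genes (median -0.006, against -0.46 over all genes). The lowest was the transcription factor SNAI2 (-0.32), for which the first sgRNA had -0.71 and the second 0.03. ZAR1L, an oocyte gene, had -0.23, and -0.14 without replicate 1 of 2022.

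The 2 sgRNAs of a gene target the same start site region and often differed in strength. They are called first and second by the order of their names. They differed past the threshold for 358 of 543 genes (65.9%), and by at least 0.5 for 141 (26.0%). The median size of the difference was 0.17, and the Pearson r of the 2 values over 543 genes was 0.76. Both sgRNAs gave a lower value past the threshold in 382 genes, both gave a higher one in 13, and 6 genes had 1 lower and 1 higher. In 65 genes 1 sgRNA was lower and the other did not pass. The named positions of the 2 sgRNAs were 1 to 994 bases apart with a median of 62. The median difference was 0.20 for the 271 genes above that distance and 0.14 for the other 272.

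The largest difference was in PSMD13, a proteasome lid subunit, with -0.003 ± 0.041 for the second sgRNA and -2.91 ± 0.185 for the first (SD, n = 4 cultures). CTCF, the insulator protein, had 0.01 ± 0.010 and -2.50 ± 0.220 in the same order. The ubiquitin ligase NEDD4 had -1.97 ± 0.113 for the second sgRNA and -0.009 ± 0.0092 for the first. XRCC6 had -0.34 for the second and -3.15 for the first, the seryl-tRNA synthetase SARS -1.83 and -3.90, REXO2, a mitochondrial exoribonuclease, -1.26 and -3.06, and RIOK1 -3.16 and -1.33. In 8 genes 1 sgRNA lay below -1 while the other lay within the range of the non-targeting sgRNAs. These were PSMD13, CTCF, NEDD4 and MSH6 (-1.63 for the second and -0.05 for the first) and, chosen after their values were seen, CCNB2, SUV39H1, DYNLRB1 and RNPS1. Gene values follow summed reads, so they lie nearer the sgRNA with more reads at the endpoint: PSMD13 had -0.44 and XRCC6 -0.57.

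A gene can also be depleted before T0, in the 9 days between transduction and the first sample. The level at T0 was read against constructs with 2 non-targeting sgRNAs. The starting abundance of the constructs was not used here, so a low T0 level cannot be told apart from few copies in the library. T0 levels ran from -3.36 to 0.81 on the log2 scale with a median of -0.11. The lowest were NUP62 of the nuclear pore (-3.36), NOL6 (-3.17), PLK1 (-3.16), RCC1, the exchange factor of the RAN GTPase (-3.14), and HAUS1 (-2.79). Their growth values after T0 were -0.96 for NUP62, -0.90 for PLK1 and -1.17 for RCC1, far from the lowest genes, against -3.21 for NOL6 and -2.35 for HAUS1. HJURP, NOP10 and DNMT1, by contrast, had T0 levels of -0.08, 0.45 and 0.22 and were among the 8 lowest afterwards. Across 543 genes the T0 level and the growth value had a Pearson r of 0.43, and both use the same T0 libraries. All 47 genes with a T0 level below -1 were lower in growth (median -1.25), 32 of them below -1, against a median of -0.38 for the other 496 genes.

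The 2 screens ordered the genes alike and differed in size. The means of the 2023 and 2022 cultures had a Pearson r of 0.99 over 543 genes, with shared sgRNAs, and the slope of 2023 on 2022 through 0 was 1.12. From T0 to the endpoint 10 days passed in 2023 and 9 days in 2022. The screens also differed in representation at transduction, 400-fold in 2023 and 350-fold in 2022, and in DNA extraction. These differences cannot be told apart here. The constants that link the log2 change to the authors' deposited growth scores averaged 8.01 in 2023 and 7.46 in 2022, a ratio of 1.07. The screen difference passed for 169 of 543 genes (31.1%), 163 of them lower in 2023 (30.0%) and 6 higher (1.1%). TMM scaling gave 114 lower and 42 higher, and total reads 69 lower and 19 higher.

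NOL6 had a mean of -3.53 in 2023 and -2.90 in 2022, a fitted difference of -0.64 (edgeR adjusted p = 0.00502). CAD had -4.38 and -3.80, and CYB5B -2.24 and -1.68, in the same order. DCTN3 (-0.48), TAF2 (-0.48), ADPRM (-0.48), RABGGTB (-0.43), a subunit of the enzyme that prenylates RAB proteins, and SDAD1 (-0.42) had the next largest differences. Of the 6 that were higher in 2023, C12orf66 (0.19), GPS2 (0.14), TSC1 (0.07) and HMGXB3 (0.06) were among the genes above the controls, and HNRNPK (0.10), an RNA-binding protein, was less depleted in 2023. In limma on the 4 culture values, 0 genes passed after division by the authors' constants (75 with an unadjusted p under 0.05). With medians over constructs that were not divided, 0 passed in limma too (116 with an unadjusted p under 0.05). The 0 after division therefore cannot show whether the constants remove the screen difference. The edgeR count of 169 also rested on single cultures. It was 249 without replicate 1 and 352 without replicate 2 of 2022, and 40 without replicate 1 and 34 without replicate 2 of 2023.

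The position of the targeting sgRNA within the construct had a smaller effect. The second minus the first position passed for 207 of 543 genes (38.1%), 33 of them lower (6.08%) and 174 higher (32%) in the second position, with a median difference of 0.04. Only 6 genes differed by at least 0.5 past the threshold. TMM scaling, which was applied within these columns, turned the balance to 299 lower and 53 higher. DBR1, the enzyme that opens intron lariats, was the largest and was named after its value was seen, with -1.82 in the second position and -2.94 in the first. PPCDC of coenzyme A synthesis had -1.56 in the second and -2.36 in the first, and IARS2 differed in the opposite direction, by -0.62. The spread over the 55 non-targeting partners of a sgRNA had a median SD of 0.10 and ran from 0.05 to 0.29.

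CRISPR interference can also repress a neighbour whose start is close. RefSeq placed another protein-coding start within 1000 bases for 102 of the 448 genes with a promoter entry. Their median growth value was -0.46, equal to the median of -0.46 for the other 346. For a single gene the equal medians do not show which start was repressed. Genes named above with a close neighbour outside the library include RAD17 (6 bases from TAF9), PTCD1 (145 bases from CPSF4), HAUS1 (158 bases from ATP5F1A) and RBBP4 (276 bases from ZBTB8OS). In 6 cases both neighbours were in the library, with starts 59 to 352 bases apart on opposite strands, and the pairs were named because the annotation pairs them. GEN1 (-0.34) lay 59 bases from SMC6 (-1.32). RMI1 (-0.43) lay 144 bases from HNRNPK (-0.36), ZAR1L (-0.23) 145 bases from BRCA2, and DCTN5 (-0.69) 156 bases from PALB2 (-0.46). CEP89 (-0.05) lay 284 bases from C19orf40 (-0.59, now FAAP24) and MOSPD2 (-0.17) 352 bases from FANCB (-0.50).

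For GEN1 the second sgRNA had -0.02 and the first -0.66, and for RMI1 the second had -0.02 and the first -0.71. Some neighbours of recombination and Fanconi genes were also lower in replicate 1 of 2022, but CEP89 was not, with -0.05 in it against -0.04 to -0.05 in the others. In that culture DCTN5 had -1.04 against -0.56 to -0.59 in the others, ZAR1L -0.47 against -0.14 to -0.16, and MOSPD2 -0.24 against -0.13 to -0.17. PALB2 itself had -0.74 in it against -0.35 to -0.37, and FANCB -0.75 against -0.41 to -0.42. Which of the 2 neighbours a sgRNA repressed was not measured.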

How the data were processed

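Genomic DNA of K562 cells was amplified over the sgRNA cassettes and sequenced. The labels' protocols describe PCR and name no molecular identifiers, so sums and intervals rest on PCR reads. The authors deposited raw read counts for each construct, and the submitters' processing notes name Bowtie2 2.3.4.1. The authors also deposited log2 growth scores per replicate, which were used only to recompute their constants of 7.19 and 7.73 in 2022 and 8.04 and 7.98 in 2023.

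Counts were summed per gene over its constructs with a non-targeting partner, and library size was the summed count of constructs with 2 non-targeting sgRNAs. All 12 libraries entered one quasi-likelihood fit of edgeR 4.0.16 in R 4.3.3, with a block per culture and a term per endpoint arm and screen. Growth is the mean over screens of reference endpoint minus T0. Adjustment was that of Benjamini and Hochberg, over 543 genes plus 55 non-targeting sgRNAs. The fit left 4 residual degrees of freedom, gave a coefficient of variation of 3.06% and was tested on simulated data. SEs come from within screens and leave out the difference between them, whereas printed SDs are over the 4 cultures. The spread over partners and the median over constructs use log2 counts with 10 added.

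Same-numbered libraries come from 1 culture per the labels, which say that each was divided after T0. As a check, the replicate difference over genes was correlated between arms. Between reference endpoint and T0 r was 0.039 in 2023 and -0.0015 in 2022. Between niraparib and T0 it was 0.086 and -0.020 in the same order. Between niraparib and reference endpoint r was 0.21 in 2023 and 0.49 in 2022. The pairing of T0 with the endpoints therefore rests on the labels. Replicates are called biological in the labels. DESeq2 1.42.0 and limma 3.58.1 served as alternatives, beside other scalings, single sgRNAs, positions or screens, a T0 minimum of 50 and leaving out each culture.

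Genes named were drawn from the 15 lowest, all that rose, the 3 lowest and the highest of each list (all for lists of up to 8), the 8 largest screen differences in each direction, the 8 largest sgRNA differences, the 5 lowest T0 levels, and PARP1 and PARP2. The genes and lists were chosen with earlier results of these data known. RefSeq symbols matched 507 genes directly and 34 by synonym, and 2 were not matched. Sequences of the sgRNAs and the build of their positions were not used here. Some genes that the rule names are not reported here.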

Additional observations from a re-analysis of the deposited data

Results flagged for a closer look

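A culture far from the other 3 of the same gene was found for 67 of 543 genes. The rule would flag about 1 in 20 groups by chance if the 4 cultures were 1 uniform group. They come from 2 screens, and all genes share the same libraries, so that rate is no yardstick for the count. In 58 of the 67 genes the far culture was replicate 1 of 2022, as the lowest value. Among the genes named here, the value of that culture was -0.41 for NF1, -0.076 for CCNB1, -1.04 for DCTN5, -2.10 for BRCA2, -2.06 for BARD1, -1.07 for RAD54L, -1.35 for PARP1, -1.85 for HUS1, -0.79 for XRCC1, -0.47 for ZAR1L, -0.74 for PALB2 and -0.75 for FANCB. For PSPH it was the highest of the 4, at -1.12. For E2F7 the value of replicate 2 of 2022 stood apart at 0.051, and for NCBP2 at -0.92.

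The change from T0 to the endpoint differed between the screens, by the edgeR test of the difference, for the following named genes, given as 2023 minus 2022 on the log2 scale. The value was positive for C12orf66 (0.19), GPS2 (0.14), HNRNPK (0.10), TSC1 (0.065) and HMGXB3 (0.063). The largest negative differences were those of NOL6 (-0.64), CAD (-0.57), CYB5B (-0.56), DCTN3 (-0.48), TAF2 (-0.48), ADPRM (-0.48), RABGGTB (-0.43), SDAD1 (-0.42), RIOK1 (-0.40), NOP10 (-0.39), MBTPS2 (-0.38), GAPDH (-0.38), IPO13 (-0.37) and UMPS (-0.36). Next came HJURP (-0.35), ATXN10 (-0.35), PARS2 (-0.33), MCM2 (-0.32), PGK1 (-0.32), RCC1 (-0.32), DKC1 (-0.31), REXO2 (-0.31), XRCC5 (-0.30), CENPM (-0.30), ORC5 (-0.29), GEMIN2 (-0.29), RFC3 (-0.29) and MED19 (-0.29). Smaller ones were found for SEH1L (-0.29), NHP2 (-0.28), LIN52 (-0.28), RPTOR (-0.27), MINOS1 (-0.27), PRIM1 (-0.27), DCTN1 (-0.27), HAUS1 (-0.26), MTHFD1 (-0.25), MTOR (-0.25), MED18 (-0.24), DNMT1 (-0.24), HSD17B12 (-0.23) and PSMD12 (-0.22). Then followed ALDOA (-0.22), DBR1 (-0.22), RPA2 (-0.21), IARS2 (-0.20), UROD (-0.20), MTHFD1L (-0.19), PSMA7 (-0.17), GAB2 (-0.17), XRCC6 (-0.16), RPA3 (-0.15), SOS1 (-0.15), PPP2R2A (-0.15), NUP62 (-0.15) and LAMTOR3 (-0.14). The mildest were those of BUB3 (-0.13), PSMA2 (-0.13), POLG (-0.13), NOP14 (-0.12), PSMD13 (-0.11), LAMTOR5 (-0.10), CDK12 (-0.10) and CTCF (-0.090). In limma, none of the 543 genes passed after division by the authors' constants, where 75 genes had an unadjusted p under 0.05. None passed in limma with undivided medians over constructs either, so that result cannot be set against the edgeR calls. The cause of the screen differences was not tested.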

How the results depend on the processing

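Counts of lower genes were 260 with TMM scaling, 252 with median-of-ratios scaling and 187 with total reads, and counts of higher genes 248, 263 and 338 in the same order. Higher genes numbered 12 with 2022 alone, 15 with medians over constructs and 10 above the highest non-targeting sgRNA. Leaving out each culture in turn gave 425 to 497 growth calls, 412 to 459 lower and 13 to 38 higher genes, 34 to 352 screen differences, 302 to 396 sgRNA differences and 116 to 246 position differences. Screen differences numbered 88 with total reads and 99 with 8 libraries, against 169 in edgeR and 216 in DESeq2. In limma they numbered 0 with medians over constructs (116 at an unadjusted p under 0.05). After division by the authors' constants they also numbered 0 in limma (75 at an unadjusted p under 0.05). Differences of at least 0.5 numbered 141 between sgRNAs and 6 between positions, and TMM scaling gave 352 position differences. Without the replicate block the pairing of cultures was ignored, with 465 growth calls, 436 lower and 29 higher genes, 169 screen, 356 sgRNA and 211 position differences. For the shifts with scaling the construction of the scale, on all genes or all reads in place of the controls, is the difference. For the other settings the cause was not tested.

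Of 165 named genes, 30 changed sign with TMM scaling, 33 with median-of-ratios and 49 with total reads. With TMM scaling the values were PIK3CA 0.26, RRAGD 0.37, PPP4C 0.011, MYC 0.23, PTPN11 0.41, ABL1 0.44, NF1 0.19, LZTR1 0.30, BMI1 0.40, CBX6 0.43, RB1 0.061, MCM7 0.44, CDC45 0.43, POLE3 0.44, PCNA 0.40, RFC2 0.34, CASC3 0.21 and PRPS1 0.11. Further values on that scale were CENPF 0.12, CCNB1 0.40, PARP2 0.41, XRCC1 0.0063, PSMD13 0.0014, SNAI2 0.13, HNRNPK 0.078, ZAR1L 0.21, GEN1 0.096, RMI1 0.0058, CEP89 0.39 and MOSPD2 0.27. With median-of-ratios scaling they were LAMTOR5 0.013, PIK3CA 0.31, RRAGD 0.42, PPP4C 0.062, MYC 0.28, PTPN11 0.46, ABL1 0.49, NF1 0.24, LZTR1 0.35, BMI1 0.45, CBX6 0.48, RB1 0.11, MCM7 0.49, CDC45 0.49, POLE3 0.49, PCNA 0.45, RFC2 0.39 and CASC3 0.26. Further values on that scale were PRPS1 0.17, CENPF 0.17, CCNB1 0.45, PARP2 0.46, XRCC1 0.057, PSMD13 0.053, NEDD4 0.010, SNAI2 0.18, HNRNPK 0.13, ZAR1L 0.26, PALB2 0.035, GEN1 0.15, RMI1 0.057, CEP89 0.45 and MOSPD2 0.32. With total reads they were LAMTOR5 0.31, PIK3CA 0.61, RRAGD 0.72, COPS2 0.17, PPP2CA 0.15, PPP4C 0.35, MYC 0.57, PTPN11 0.76, ABL1 0.78, NF1 0.53, PTPN1 0.066, LZTR1 0.64, BMI1 0.75, CBX6 0.78, MYBL2 0.052, RB1 0.41, MCM7 0.78 and CDC45 0.78. Further values on that scale were POLE3 0.78, PCNA 0.75, RFC2 0.68, MAGOH 0.25, RBM8A 0.086, EIF4A3 0.095, CASC3 0.55, PRPS1 0.46, MTHFD1L 0.10, CENPF 0.46, CCNB1 0.74, DCTN5 0.091, RAD54L 0.41, PARP1 0.035, PARP2 0.76, XRCC1 0.35, XRCC6 0.21 and MSH6 0.29. Further values on that scale were PSMD13 0.35, CTCF 0.086, NEDD4 0.30, SNAI2 0.47, HNRNPK 0.42, ZAR1L 0.56, PALB2 0.33, GEN1 0.44, RMI1 0.35, C19orf40 0.20, CEP89 0.74, FANCB 0.29 and MOSPD2 0.61. The first sgRNA alone gave PTPN11 0.041, RB1 0.029 and PCNA 0.026. The second sgRNA alone gave ARID1A -0.015, BMI1 0.024, CTCF 0.010 and SNAI2 0.026. POLE3 ran from -0.038 to 0.029 with a culture left out, and it was positive at 0.029 without replicate 1 of 2022 and at 0.046 in 2023 alone. The other settings reversed none of the named genes: DESeq2, no block, 8 libraries, the T0 minimum, single positions, one growth term, 2022 alone, medians over constructs and each other culture left out. Calls were lost for 16 named genes with 2022 alone, 15 without replicate 2 and 11 without replicate 1 of 2023, 11 with medians over constructs, 9 with the second and 7 with the first sgRNA alone, 7 with the second and 4 with the first position alone, 6 with 2023 alone, and 0 to 3 with each other setting. Depth limits most the genes with few reads at the endpoint, down to 757 summed reads in a library.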
